A study of Homo sapiens with 24 samples.

Results

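The glycolytic enzymes described here are the 10 genes GAPDH, PGK1, PKM, ENO1, ALDOA, LDHA, TPI1, PGAM1, PFKP and GPI, which code for abundant mRNAs of central metabolism. They were picked by gene name, with no threshold on a value, out of 54583 genes in the count table. A total of 12058 genes had at least 1 read in every library and were tested, and all 10 members were among them.

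PANC-1 cells, an established human line derived from a pancreatic duct carcinoma, were given DMSO, CID661578 at 40 µM or cercosporamide at 5 µM for 6 h. CID661578 is a small molecule that binds the kinase MNK2, and cercosporamide inhibits the kinase activity of MNK2, whose known substrate is the cap-binding protein eIF4E. Total cytosolic RNA and polysome-associated RNA, which is mRNA carrying more than 3 ribosomes, were sequenced from the same 12 plates, with 4 biological replicates per treatment, so each of the 6 groups holds 4 libraries. All groups come from this 1 line, and the doses of the compounds differ. The DMSO plates serve as controls for each of them.

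Glycolysis splits glucose into pyruvate in the cytosol: its upper steps use ATP to make and cleave a phosphorylated hexose, and its lower steps recover ATP and NADH from triose phosphates. Lactate dehydrogenase then turns pyruvate into lactate and restores NAD+, a route that many carcinoma cells use even when oxygen is present. Tumour cells commonly carry large amounts of these mRNAs, and several of the genes are widely used as reference genes in expression assays.

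The libraries held between 9268041 and 12184749 reads on genes, except the polysome library of cercosporamide replicate 4 with 1592459. All 7 markers of duct epithelium had reads in every library, at very unequal levels. In total RNA of DMSO plates, KRT8, KRT18 and KRT19 had 5199, 3374 and 1474 CPM (counts scaled to library size), while KRT7, SOX9, EPCAM and MUC1 had 19.5, 14.3, 8.32 and 3.53 CPM. None of the acinar, endocrine or endothelial markers had reads in every library, and PRSS1 and INS had none at all. Of the leukocyte markers, CD68 had 543 CPM and PTPRC and CD3E had no reads. The total RNA library of CID661578 replicate 1 and that of cercosporamide replicate 3 stood apart from their groups by GC content. Against the other 3 libraries of the group, the median log2 CPM of genes in the lowest quartile of transcript GC content exceeded that of the highest quartile by 1.27 in each of them. The total RNA library of cercosporamide replicate 2 and the polysome library of CID661578 replicate 2 were tilted the other way, with differences of -1.18 and -1.06.

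In DMSO plates the 10 mRNAs spanned a wide range of levels. Compared per transcript length, as RPKM, which is CPM per kilobase of the canonical GENCODE transcript, the order in total RNA began with ENO1 (enolase, which makes phosphoenolpyruvate) at 3024 ± 255 (SD, n = 4). GAPDH, which oxidizes glyceraldehyde 3-phosphate, followed at 2459 ± 279 RPKM, and its range overlapped that of ENO1. The triose phosphate isomerase gene TPI1 had 1665 ± 120 RPKM. PKM, the pyruvate kinase gene, had 801 ± 313 RPKM and PGAM1, the phosphoglycerate mutase gene, had 782 ± 46.3 RPKM, and these ranges overlapped as well. LDHA, the lactate dehydrogenase A gene, had 491 ± 129 RPKM, and PGK1, whose enzyme makes the first ATP of the lower steps, had 351 ± 35.7 RPKM. These 7 genes of the triose and later steps lay above the 3 genes of hexose steps, which are PFKP (phosphofructokinase, the committed step) at 159 ± 22.9 RPKM, GPI (glucose-6-phosphate isomerase) at 61.7 ± 9.25 RPKM and ALDOA (aldolase A) at 54.4 ± 11 RPKM. A gene whose main transcript in these cells is shorter than the canonical one would stand higher in this order. ENO1 ranked 29 and ALDOA 1706 of 11571 genes with a known length. The ALDOA level is uncertain. The gene lies on chromosome 16 from 30064164 to 30070457 (GRCh38, GENCODE v44), where another RefSeq gene, LOC112694756, covers 99.9% of its RefSeq span, and the counting left out reads that fall on more than 1 gene.

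**Figure D1:**
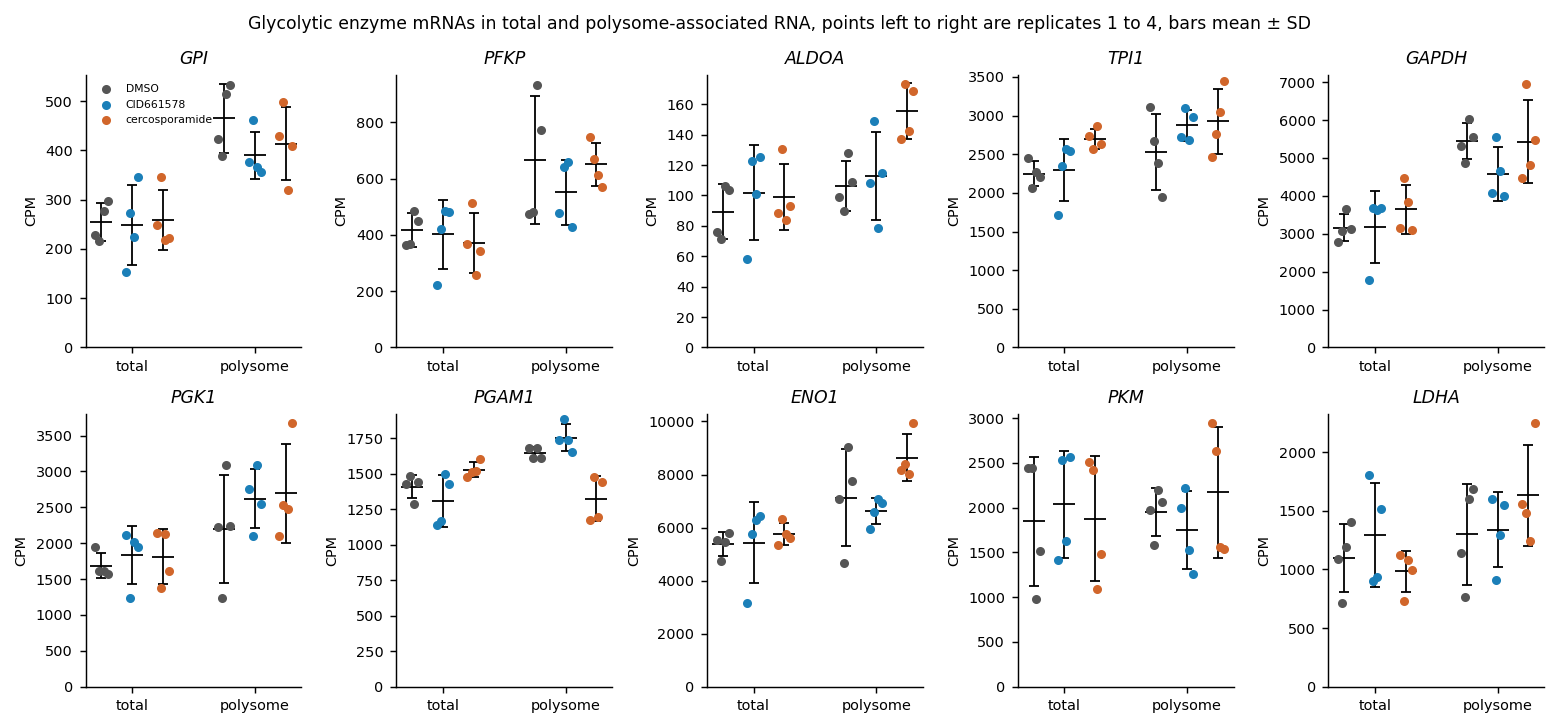
CPM (vertical axes, from 0) of each member in the 24 libraries, in pathway order from GPI to LDHA, with total RNA at the left and polysome-associated RNA at the right of each panel. Coloured points are replicates 1 to 4 and black bars the mean ± SD. The CID661578 total library of replicate 1 is the lowest of its group for GAPDH, ENO1, TPI1, PFKP, GPI, PKM, PGAM1 and ALDOA, and PGAM1 in polysomes after cercosporamide lies below all 4 DMSO values.

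For most steps 1 isozyme carried nearly all of the signal. ENO2, the neuronal enolase gene, had 5.66 RPKM in total RNA of DMSO plates, against 3024 for ENO1. PFKL and PFKM, the liver and muscle phosphofructokinase genes, had 7.53 and 4.68 RPKM, against 159 for PFKP. PKLR had no reads. Lactate dehydrogenase was the exception, since LDHB stood at 404 RPKM beside 491 for LDHA. Hexokinases, which phosphorylate glucose on entry, were low, at 9.85 RPKM for HK1 and 0.758 RPKM for HK2.

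The spread between replicates differed from gene to gene. PGAM1 was the steadiest, with a median coefficient of variation of 5.69% over the 6 groups, and PKM the least steady, with 31.5%. PKM in total RNA of DMSO plates had 2445, 2441, 983 and 1515 CPM in replicates 1 to 4, and after cercosporamide it had 2512, 2421, 1094 and 1477 CPM. Replicates 3 and 4 were thus the low ones in both treatments. After CID661578 the values were 1419, 2535, 1630 and 2568 CPM, with another order of replicates.

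The first question was how the 10 mRNAs divide between polysomes and total RNA in untreated cells. With DMSO the members together took between 1.53% and 1.85% of the reads of a total RNA library and between 2.14% and 2.91% of a polysome library. Over all treatments the ranges were 1.39% to 1.89% and 2.14% to 2.91%, and these do not overlap. With no spike-in RNA, each value is relative to the other genes of its library, and in bulk RNA fewer cells with an mRNA and less of it per cell cannot be told apart. The fitted polysome to total ratio with DMSO lay above 0 on the log2 scale for all 10 members, with a median of 0.29. Of the 10, 4 were called higher in polysomes and none lower by the quasi-likelihood test of edgeR, with a Benjamini-Hochberg adjusted p under 0.15 and more than 1.2-fold difference. Over all genes tested, 26.4% were called higher and 29.6% lower in the same comparison. TMM scaling sets where 0 lies here: computed within each fraction it moved the median of all genes to 0.26, the median of the members to 0.57 and the number of members called to 10.

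GPI (chromosome 19, 34359480 to 34402413) had the highest ratio. Its log2 ratios were 0.89, 0.84, 0.90 and 0.85 in the 4 DMSO plates, and the fitted value was 0.87 (SE 0.174, adjusted p = 0.000275, same test). The 4 plates agreed more closely for GPI than for any other member, with an SD of 0.0272. GAPDH followed with log2 ratios of 0.93, 0.67, 0.72 and 0.82 and a fitted ratio of 0.79 (SE 0.192, adjusted p = 0.0019 by edgeR). For PFKP the ratios were 0.38, 0.38, 0.94 and 0.78, with a fitted value of 0.62 (SE 0.186, adjusted p = 0.00894 by edgeR). ENO1 passed with less margin, at 0.37 (SE 0.196, adjusted p = 0.132 by edgeR), and 1 of its 4 plates was below 0. The call for ENO1 was lost without replicate 1 (adjusted p = 0.205 by edgeR) and without replicate 3 (adjusted p = 0.328 by edgeR).

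The other 6 members did not pass, with fitted log2 ratios between 0.15 for TPI1 and 0.32 for PGK1. PGAM1, ALDOA and LDHA were above 0 in all 4 DMSO plates with small values, and PKM was split, with log2 ratios of -0.31, -0.63, 1.16 and 0.45. The wide spread of PKM followed its total RNA, which was low in replicates 3 and 4, while its polysome level was between 1580 and 2192 CPM.

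**Figure D2:**
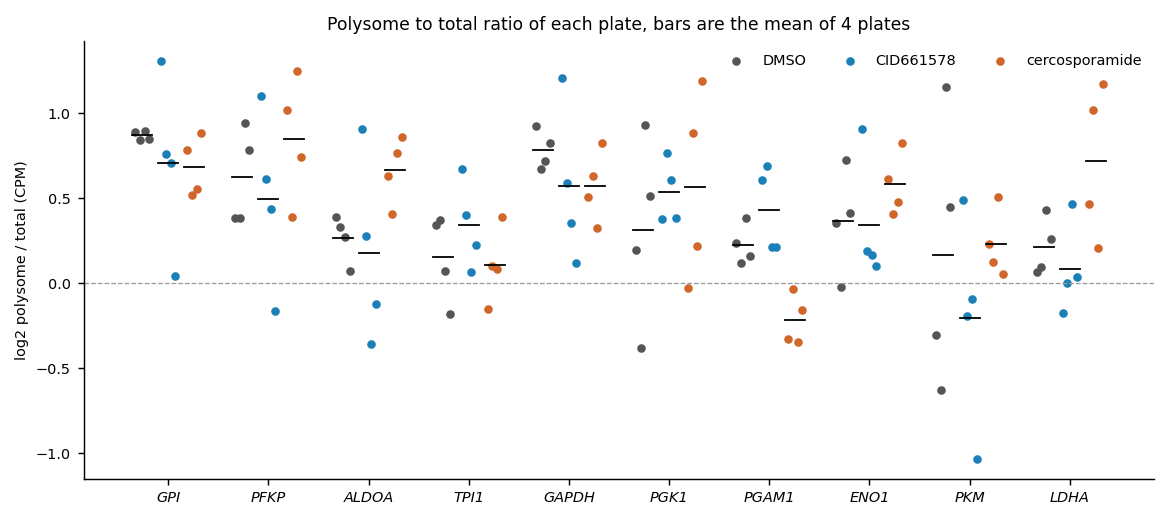
Log2 ratio of polysome to total CPM (vertical axis) of each member on each of the 12 plates, grouped by treatment. Points are replicates 1 to 4 and black lines their mean. GPI with DMSO lies between 0.84 and 0.90, PKM with DMSO between -0.63 and 1.16, and PGAM1 after cercosporamide is below 0 on all 4 plates.

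CID661578 treatment changed none of the 10 mRNAs past the thresholds, in total RNA, in polysomes or in translational efficiency (TE), which is how far polysome-associated RNA changed beyond total RNA. In total RNA the median change of the members was -0.0037 on the log2 scale, and their fitted changes reached from -0.11 for PGAM1 to 0.24 for PKM. Over all genes tested, 0.315% were called higher and 0.133% lower in total RNA. In polysomes the median change of the members was -0.012, where 6.16% of all genes were called higher and 3.96% lower. The TE changes lay between -0.37 for PKM and 0.22 for PGK1 with a median of -0.11, beside 0.032 for all genes. Only 0.00829% of all genes were called higher and 0.199% lower in TE after CID661578 in this fit, so the members' count of 0 is near the background. With the anota2seq method and the same limits on adjusted p and fold, the paper reports more mRNAs with changed translation after CID661578.

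The intervals show what these data could have missed. In total and polysome RNA, the 95% intervals of all 10 members stayed within a 2-fold change in either direction after each compound. For TE after CID661578, 9 of 10 intervals did, and that of PKM reached -1.03. No member had an unadjusted p below 0.05 in TE or total RNA with either compound.

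**Figure D3:**
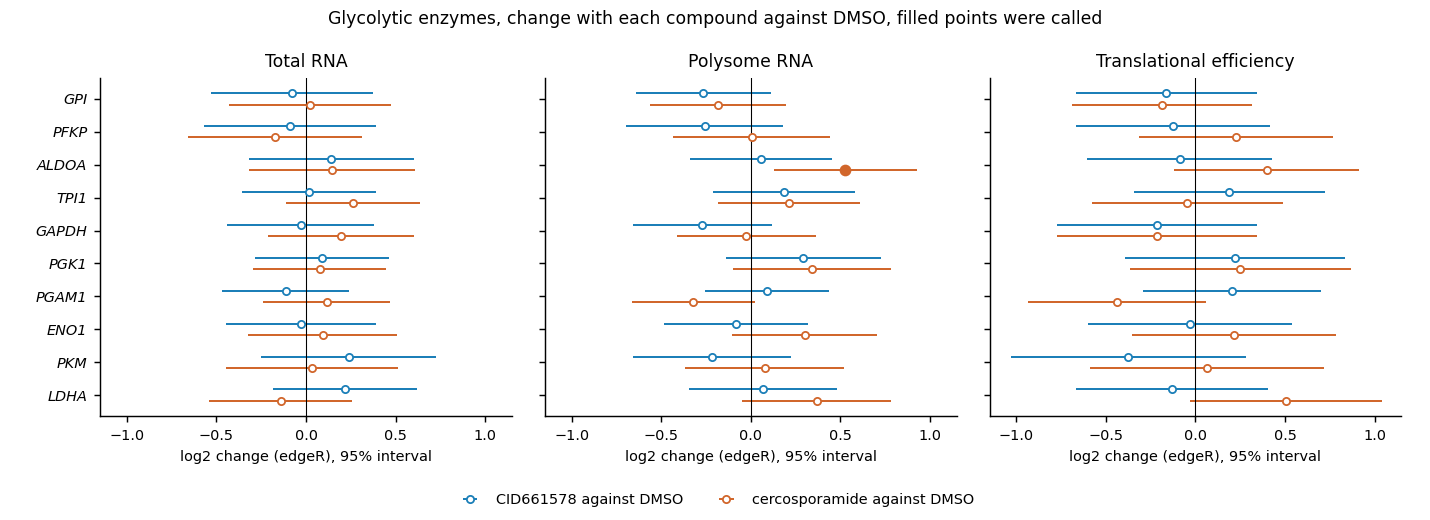
Fitted log2 changes against DMSO (horizontal axes) with 95% intervals for the 10 members in total RNA, polysome RNA and TE. Blue is CID661578, orange is cercosporamide, open points were not called and the 1 filled point, ALDOA in polysomes after cercosporamide, was.

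Among the single plates, replicate 1 of CID661578 differed most from its group. In total RNA of CID661578 replicate 1, GAPDH had 1767 CPM, while the other 3 libraries of the group had 3678, 3639 and 3667 CPM. ENO1 had 3172 CPM there against 5776, 6296 and 6454 CPM. LDHA and PGK1 went the other way, with LDHA at 1807 CPM against 905, 938 and 1512 CPM. The polysome library of the same plate showed no such gap, with GAPDH at 4084 CPM beside 5545, 4655 and 3982 CPM.

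The members in this library lined up by the GC content of their transcripts. LDHA and PGK1, with 41.8% and 42.8% GC, lay above the mean of the other 3 libraries of the group by 0.73 and 0.32 on the log2 scale. The other 8 members have between 52.7% and 60.5% GC and lay below it, from -0.25 for PGAM1 to -1.05 for GAPDH. The total library of cercosporamide replicate 3 had the same tilt over all genes. There LDHA and PGK1 lay above the mean of the other 3 libraries of the group, by 0.21 and 0.34. Of the other 8 members, GAPDH and TPI1 lay above it, by 0.13 and 0.12. The rest lay below it, from -0.0011 for ENO1 to -0.93 for PKM. The part of GC content in these values was not tested. Without replicate 1, the median TE change of the members after CID661578 was -0.26 in place of -0.11, their median change in total RNA was 0.12, and none was called. The background moved as well: 97 of 12153 genes were then called higher in TE and 244 lower. With all replicates these counts were 1 and 24 of 12058 genes.

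**Figure D4:**
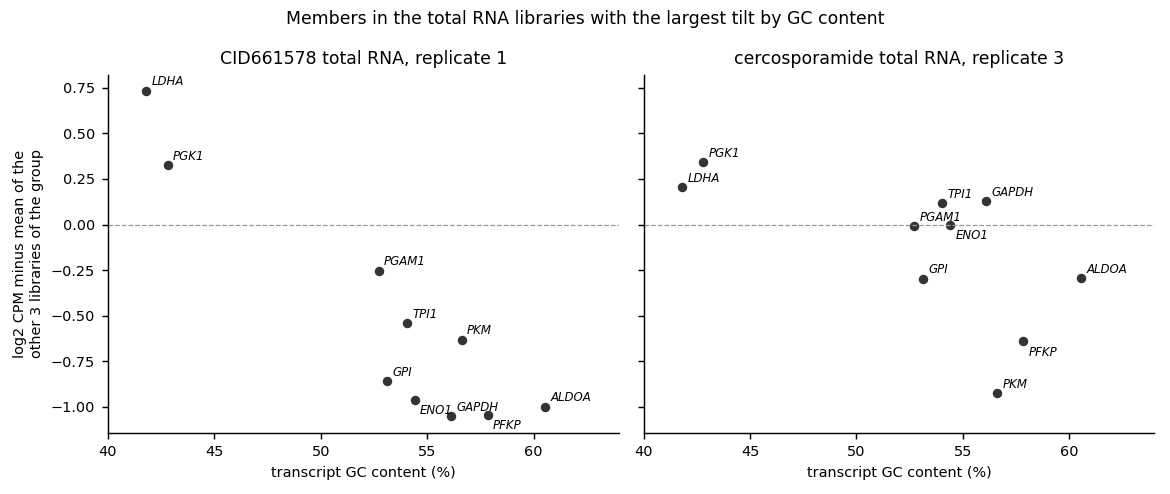
Log2 CPM of each member in 1 library minus the mean of the other 3 libraries of its group (vertical axis) against the GC content of its canonical transcript in percent (horizontal axis). In the CID661578 library the 2 low-GC members are above 0 and the other 8 below. In the cercosporamide library the 2 low-GC members are above 0, GAPDH and TPI1 slightly above it, and the others below or close to 0.

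After cercosporamide treatment none of the members was called in TE or total RNA, and 1 of 10 was called in polysomes. This is set against a broad change among the other genes: in TE, 15.8% of all genes were called higher and 12.6% lower. In polysomes, 18.3% were called higher and 13.8% lower, and in total RNA 0.29% higher and 0.0912% lower. The members' median change was 0.084 in total RNA, 0.15 in polysomes and 0.14 in TE. Their TE changes reached from -0.44 for PGAM1 to 0.50 for LDHA.

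ALDOA was the member called in polysomes. Its polysome level was 99.2, 89.8, 128 and 109 CPM with DMSO and 137, 174, 142 and 169 CPM after cercosporamide. The 2 groups do not overlap, and the fitted change was 0.53 (SE 0.193, adjusted p = 0.0598 by edgeR), higher in 4 of 4 replicates. In total RNA ALDOA had 75.9, 71.5, 106 and 103 CPM with DMSO and 88.7, 131, 83.7 and 92.9 CPM after cercosporamide, and these groups overlap. The TE change of 0.40 did not pass (SE 0.251, adjusted p = 0.299 by edgeR), although it was above 0 in 4 of 4 replicates. The polysome call was lost without replicate 2 (adjusted p = 0.243 by edgeR), without replicate 4 (adjusted p = 0.194 by edgeR) and with no filter on low counts (adjusted p = 0.246 by edgeR), and it held in 12 of 16 alternatives. Without the shallow cercosporamide replicate 4 alone, the change was 0.47 (adjusted p = 0.147 by edgeR). All ALDOA changes rest on the reads that the counting did not leave out for the overlap with LOC112694756. That gene had 52 to 427 reads of its own per library.

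PGAM1 (chromosome 10, 97426191 to 97433444) had the opposite pattern. In polysomes it had 1681, 1608, 1680 and 1610 CPM with DMSO and 1178, 1479, 1197 and 1439 CPM after cercosporamide, so all 4 treated values were below all 4 controls. How many of all genes separate in this way was not counted, here or for the other members. The fitted polysome change of -0.32 did not pass (SE 0.168, adjusted p = 0.192 by edgeR), and neither did the TE change of -0.44 (SE 0.242, adjusted p = 0.228 by edgeR). In total RNA the same plates had between 1478 and 1605 CPM, against 1290 to 1483 CPM with DMSO. Without cercosporamide replicate 4 the polysome change of PGAM1 was -0.41 and passed (adjusted p = 0.122 by edgeR).

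LDHA (chromosome 11, 18394560 to 18408425) had the highest TE change after cercosporamide, 0.50, with a 95% interval from -0.033 to 1.04 (adjusted p = 0.197 by edgeR). Its log2 polysome to total ratios were 0.47, 1.02, 0.21 and 1.17 on the 4 plates, against 0.066, 0.098, 0.43 and 0.26 with DMSO, and the ranges overlap through replicate 3. TPI1 in total RNA had between 2572 and 2869 CPM after cercosporamide, above the 2067 to 2456 CPM of the DMSO plates, with a fitted change of 0.26 (adjusted p = 0.623 by edgeR). The members not yet named, PKM, ENO1, GPI, GAPDH, PFKP and PGK1, had TE changes between -0.21 for GAPDH and 0.25 for PGK1.

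Set against each other at these unequal doses, 2 of the 10 members passed the test of the difference in TE. PGAM1 was higher after CID661578 than after cercosporamide by 0.65 (SE 0.242, adjusted p = 0.112 by edgeR), in 4 of 4 replicates. Its log2 ratios were 0.61, 0.69, 0.21 and 0.21 after CID661578 and -0.33, -0.031, -0.35 and -0.16 after cercosporamide, with no overlap. LDHA was lower after CID661578 (log2 difference -0.63, SE 0.26, adjusted p = 0.147 by edgeR), in 3 of 4 replicates. Over all genes, 7.93% were called higher with CID661578 and 7.57% called higher with cercosporamide in this comparison, so the members' count is near the background. The call held in 10 of 16 alternatives for PGAM1 and in 3 of 16 for LDHA, which also lost it without the replicate block (adjusted p = 0.163 by edgeR). Without cercosporamide replicate 4 the difference for PGAM1 was 0.69 (adjusted p = 0.125 by edgeR) and that for LDHA was -0.50 (adjusted p = 0.315 by edgeR). After removal of each library's GC trend, the difference was 0.46 for PGAM1 (adjusted p = 0.214 by edgeR) and -0.42 for LDHA (adjusted p = 0.298 by edgeR). This removal also takes out any effect of a compound that follows GC content, so it cannot tell such an effect from a tilt of the libraries.

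Several members have near-copies in the genome. PGAM4, an intronless copy of the PGAM1 mRNA elsewhere in the genome, had 11.7% to 19.7% as many reads as PGAM1 in the 24 libraries. The counting tool assigned a read with several alignments to each of them, so reads of the copies and the parent cannot be told apart. PGAM4 fell in TE after cercosporamide (-0.56, SE 0.222, adjusted p = 0.0871 by edgeR) and in polysomes (-0.51, SE 0.165, adjusted p = 0.0335 by edgeR). The TE call for PGAM4 held in 10 of 17 alternatives and was lost with the GC trend removed (-0.39, adjusted p = 0.233 by edgeR), without replicate 1, 3 or 4, and without cercosporamide replicate 4. Pseudogenes took 12.8% to 15.1% of the reads on TPI1 and its copies, nearly all of them on TPI1P1, and 3.41% to 5.59% of those on LDHA and its copies. GAPDH had 64 listed copies, 30 of them with reads, and these held 1.45% to 3.06%. Adding the reads of the pseudogenes to the parents, PGAM4 not included, moved the log2 polysome to total ratio with DMSO by at most 0.003.

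Beyond the 10 members, 14 of 25 other isozymes and regulators of glycolysis were tested. After CID661578 none of them was called in TE or total RNA, and 3 rose in polysomes. HK2, the inducible hexokinase gene, had 10.4, 7.22, 5.88 and 8.97 CPM in polysomes of the DMSO plates and 34.5, 25.5, 21.9 and 30 CPM after CID661578. The groups were far apart, and the change was 1.79 (SE 0.221, adjusted p = 3.29e-05 by edgeR). BPGM, which makes 2,3-bisphosphoglycerate, rose by 0.94 (SE 0.188, adjusted p = 0.00707 by edgeR), and PFKFB4, a regulator of phosphofructokinase through fructose 2,6-bisphosphate, by 1.22 (SE 0.388, adjusted p = 0.0862 by edgeR). The call held in 15 of 16 alternatives for BPGM and in 12 of 16 for PFKFB4. Neither passed without the replicate block (adjusted p = 0.221 and 0.38 by edgeR). Few genes passed in that setting, 33 higher and 36 lower in place of 743 and 478. Without replicate 2 the change of PFKFB4 was 0.73 (adjusted p = 0.243 by edgeR). Over all genes, 6.16% were called higher in polysomes. Median changes over the 14 genes were 0.17 in polysomes and 0.39 in total RNA. In total RNA HK2 changed by 1.31 (adjusted p = 0.268 by edgeR) and PFKFB4 by 1.86 (adjusted p = 0.205 by edgeR). BPGM changed by 0.38 there (adjusted p = 0.824 by edgeR). Though not called, these changes mean that the polysome rises are not particular to polysomes.

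After cercosporamide 2 of the 14 genes rose and 2 fell in TE, with a median of -0.11, near the shares of 15.8% and 12.6% over all genes. LDHB, the lactate dehydrogenase B gene, rose by 1.08 (SE 0.285, adjusted p = 0.0118 by edgeR). Its polysome level was 969, 620, 1136 and 995 CPM with DMSO and 1567, 1680, 2121 and 2959 CPM after cercosporamide, while total RNA stayed within 407 to 755 CPM and 432 to 827 CPM. LDHA, the other lactate dehydrogenase gene, had a TE change of 0.50 in the same libraries, and the difference between these genes was not tested. Without replicate 2 the TE change of LDHB was 0.71 and did not pass (adjusted p = 0.17 by edgeR), and after removal of the GC trend it was 0.82 (adjusted p = 0.03 by edgeR). LDHB differed between the compounds by -1.17 (SE 0.284, adjusted p = 0.0183 by edgeR). ALDOC, a second aldolase gene at 1.61 RPKM, rose by 1.55 in TE (adjusted p = 0.083 by edgeR), and PFKFB3 fell by 1.07 (adjusted p = 0.0716 by edgeR). Neither was called in polysomes or total RNA. ALDOC changed by 0.62 in polysomes and -1.03 in total RNA, and PFKFB3 by -0.52 and 0.49. Without replicate 2 neither TE change passed, with 0.71 for ALDOC (adjusted p = 0.553 by edgeR) and -0.79 for PFKFB3 (adjusted p = 0.376 by edgeR). ALDOC also lost its call without replicate 4, and PFKFB3 lost it without replicate 1 and with the GC trend removed (-0.78, adjusted p = 0.18 by edgeR). In polysomes HK2 rose after cercosporamide also, by 1.31 (SE 0.227, adjusted p = 0.000383 by edgeR), with 16.6 to 25.1 CPM.

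Of 8 glucose and lactate transporters, 4 were tested. SLC2A1, the GLUT1 glucose transporter gene, was the only gene of the pathway lists called in total RNA. It had 93, 116, 57.7 and 88.1 CPM with DMSO and 184, 373, 115 and 320 CPM after CID661578, a change of 1.41 (SE 0.237, adjusted p = 0.0106 by edgeR). The ranges overlap only through replicate 3 of CID661578, and leaving out replicate 4 ended the call (adjusted p = 0.161 by edgeR). In polysomes SLC2A1 rose by 1.11 (SE 0.233, adjusted p = 0.0098 by edgeR), and after cercosporamide its changes were 0.029 in total RNA and 0.059 in polysomes. SLC16A1, the MCT1 lactate transporter gene, rose in TE after cercosporamide by 1.28 (SE 0.244, adjusted p = 0.00119 by edgeR), with polysome levels of 341, 355, 312 and 510 CPM against 174, 198, 199 and 282 CPM with DMSO. The polysome change was 0.83 (adjusted p = 0.00282 by edgeR), and total RNA of SLC16A1 changed by -0.44, which was not called (adjusted p = 0.427 by edgeR). Total RNA had 79.6 to 124 CPM after cercosporamide, against 132 to 144 CPM with DMSO. The TE call of SLC16A1 held in all 17 alternatives, with changes from 0.72 to 1.41. The TE changes of SLC16A1 and of SLC16A3, which codes for the MCT4 transporter, were lower after CID661578 than after cercosporamide, by -1.04 (adjusted p = 0.0162 by edgeR) and -0.85 (adjusted p = 0.117 by edgeR). Of the 4 transporters, 1 was thus called higher in TE after cercosporamide and 2 lower in the difference. Over all genes these shares were 15.8% and 7.57%. The difference for SLC16A3 did not pass without replicate 2, 3 or 4, and was -0.50 without replicate 4 (adjusted p = 0.419 by edgeR).

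**Figure D5:**
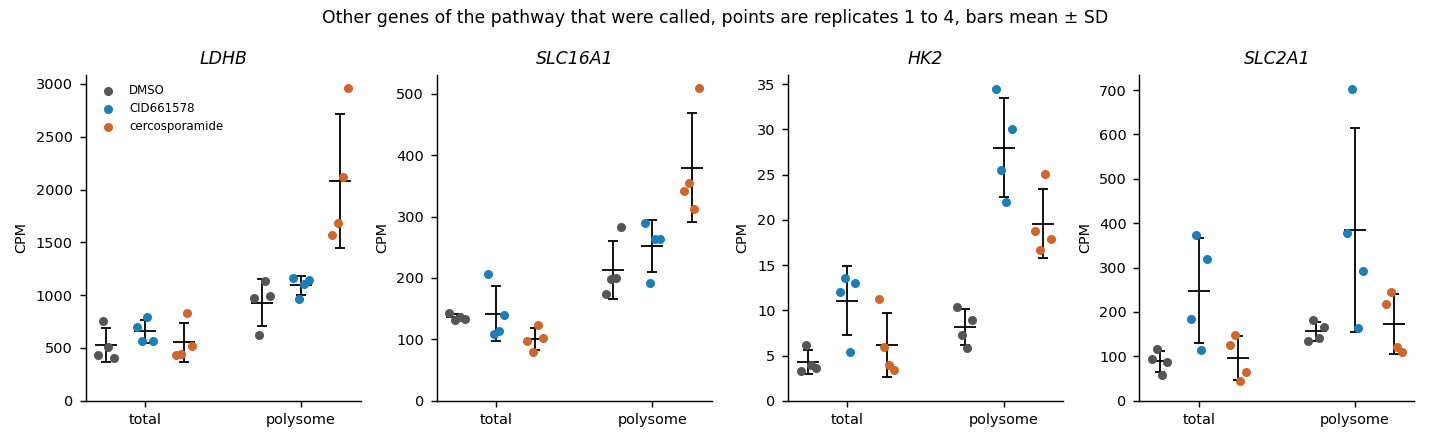
CPM (vertical axes, from 0) of 4 genes next to the members in the pathway, in total and polysome RNA of the 24 libraries. Points are replicates 1 to 4 and bars the mean ± SD. LDHB and SLC16A1 in polysomes after cercosporamide lie above all DMSO values, as HK2 does in polysomes after either compound.

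Pyruvate leaves the pathway for lactate or for the mitochondrion. Among the 10 tested genes of 13 for its entry into mitochondria, TE rose for 3 and fell for 2 after cercosporamide, where 15.8% of all genes rose and 12.6% fell. None was called in TE after CID661578, where nearly no gene of any kind was called in this fit. DLD, the dihydrolipoamide dehydrogenase subunit shared by several complexes, rose by 1.57 (SE 0.245, adjusted p = 0.000238 by edgeR), and PDHA1 and PDHX of the pyruvate dehydrogenase complex by 0.57 and 0.66. PDHX changed by 0.29 in polysomes and -0.38 in total RNA, and neither of these was called. The call for DLD held in all 17 alternatives, with changes from 0.87 to 1.76. The calls for PDHA1 and PDHX held in 5 and 11 of 17 alternatives, with 0.34 for PDHA1 without replicate 4 (adjusted p = 0.455 by edgeR) and 0.15 for PDHX with the GC trend removed (adjusted p = 0.757 by edgeR). MPC1 and MPC2, which form the mitochondrial pyruvate carrier, fell by 1.04 and 0.65 on the log2 scale (adjusted p = 0.0844 and 0.0609 by edgeR). MPC1 rests on few reads, with 0.816 to 3.99 CPM in polysomes after cercosporamide, 2.52 to 5.97 CPM with DMSO and a lowest count of 2. Without replicate 2 neither fall in TE passed (adjusted p = 0.313 and 0.194 by edgeR). PDK1, a kinase that inhibits pyruvate dehydrogenase, rose in polysomes after CID661578 by 1.53 (SE 0.302, adjusted p = 0.00647 by edgeR), at 8.14 to 15.2 CPM against 2.71 to 5.57 CPM with DMSO. Its total RNA changed by 0.90, which was not called (adjusted p = 0.629 by edgeR). DLD also rose in polysomes after CID661578, by 0.62 (SE 0.192, adjusted p = 0.08 by edgeR), a call that held in 10 of 16 alternatives. Over all genes, 6.16% were called higher in these polysomes.

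In the citric acid cycle all 20 genes were tested, and after cercosporamide TE rose for 5 (SUCLA2, SUCLG2, IDH3A, IDH1 and MDH1) and fell for SDHC, beside the same shares over all genes. SDHC kept its call in 9 of 17 alternatives and was -0.33 without replicate 1 (adjusted p = 0.483 by edgeR), and IDH3A was 0.81 without replicate 2 (adjusted p = 0.157 by edgeR). SUCLA2, a succinyl-CoA ligase subunit, had the largest of these changes, 1.49 (SE 0.27, adjusted p = 0.000782 by edgeR). Its call held in all 17 alternatives, with changes from 0.81 to 1.65. No gene of the cycle was called in TE after CID661578. In polysomes SUCLA2 rose by 0.53 and SUCLG2 by 0.55 (adjusted p = 0.116 and 0.113 by edgeR). OGDH changed by -0.84 (adjusted p = 0.11 by edgeR). Over all genes, 6.16% were called higher and 3.96% lower there. These calls held in 9, 8 and 11 of 16 alternatives for SUCLA2, SUCLG2 and OGDH. In the pentose phosphate pathway 7 of 8 genes were tested, and RPE, an epimerase of its non-oxidative branch, rose by 0.78 in TE after cercosporamide (adjusted p = 0.0487 by edgeR). That is 1 of 7 called higher, where 15.8% of all genes were. With the GC trend removed the value for RPE was 0.0068 (adjusted p = 0.988 by edgeR), and without replicate 2 it was 0.56 (adjusted p = 0.312 by edgeR). The 3 tested genes of 8 in gluconeogenesis had no call in TE.

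Transcript GC content moved with TE over all genes. Across 11571 genes, which share the same libraries and are not independent replicates, Pearson's r between GC content and the fitted TE change was -0.54 for CID661578 and -0.51 for cercosporamide. The median TE change after cercosporamide was 0.65 in the lowest quartile of GC content and -0.36 in the highest. LDHA and PGK1 lie in the second quartile, at a median of 0.20, and the other members in those above it. Removal of the GC trend of each library takes this trend of TE out as well, whatever its source. It thereby lowers the TE change of low-GC genes and raises that of high-GC genes. After this removal, the TE change after cercosporamide was 0.73 for ALDOA (adjusted p = 0.0248 by edgeR), 0.53 for PFKP (adjusted p = 0.115 by edgeR) and 0.075 for LDHA (adjusted p = 0.884 by edgeR). For ALDOA the limit from the overlapping gene LOC112694756 applies here too.

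The members did not all vary together from plate to plate. Over the 12 plates, the log2 polysome to total ratio of ENO1 correlated with the mean of the other members with r = 0.85, that of GPI with 0.67, GAPDH with 0.65, PKM with 0.65 and PFKP with 0.62. For TPI1, LDHA and PGAM1 the values were 0.13, 0.11 and -0.016. Outside the members and the pathway lists, the ratios of TUBB (r = 0.94) and SHMT2 (r = 0.92) were most like the mean of the members, out of 7835 genes compared. These plates share treatments and replicate numbers, so the correlations only describe the 12 plates.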

How the data were processed

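Total and polysome-associated RNA of PANC-1 plates were sequenced with Smart-seq2. The authors used BBDuk against rRNA reads, HISAT2 for alignment to hg38 and summarized the alignments with featureCounts of RSubread on RefSeq genes. The counts deposited by the authors are whole numbers per gene and library, not normalized. By its defaults the tool ignores strand, drops reads on several genes and counts multi-mapped reads at every location. The labels give RPMI as medium and the study's methods DMEM.

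Genes lacking reads in at least 1 library were removed (42525 of 54583). Counts were scaled by TMM and tested in edgeR 4.0.16 (R 4.3.3) by quasi-likelihood F-tests. The TE model had plate terms, replicate terms per fraction and a TE term per compound (residual degrees of freedom 6); single fractions were fitted with replicate and treatment. Genes were called at an adjusted p (Benjamini-Hochberg) below 0.15 together with a change over 1.2-fold, thresholds that the study's methods give for changes in translation and that were applied here to total and polysome RNA as well. CPM used TMM-scaled library sizes, and RPKM divided them by the GENCODE v44 canonical transcript length. GC values existed for 96% of the genes tested. No 2 libraries were copies of each other (lowest chi-square per degree of freedom 14.9 over 276 pairs). The fits were tested on simulated data.

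The replicate number was kept as a block because the study's methods name it as the batch. Deviations of treated libraries and the DMSO library of the same number correlated above 0.1 in 13 of 16 pairs. The members and lists were chosen with earlier results of these data known. All 10 members were named, list genes if called or listed first, and the genes with the most similar ratios, of which 1 is not reported here. Alternatives were DESeq2 1.42.0, other scalings and filters, fewer terms or groups, a GC correction, a stricter threshold and single replicates left out. Intervals cover 95%.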

Additional observations from a re-analysis of the deposited data

Results flagged for a closer look

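GAPDH in total RNA of CID661578 replicate 1 had 1767 CPM and stood farther from the other 3 libraries of its group than a Dixon test at 95% allows. PGK1 in total RNA of DMSO replicate 1 did the same at 1943 CPM, against 1569 to 1619 CPM in the other replicates. So did the log2 polysome to total ratio of ENO1 on the CID661578 plate of replicate 1, at 0.91 against 0.10 to 0.19. These 3 came from 90 groups of 4 values, where chance gives about 1 in 20, or 4.5. In the test of the difference between the compounds, CID661578 minus cercosporamide, the TE change of LDHA passed at -0.63 and that of PGAM1 at 0.65. These calls held in 3 and 10 of 16 alternatives, and 7.93% and 7.57% of all genes passed in either direction.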

How the results depend on the processing

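None of the 10 members was called in TE, total RNA or polysomes after CID661578, or in total RNA after cercosporamide, in any alternative run. For TE after cercosporamide the number called went from 0 to 1 with DESeq2 and 2 with the GC trend removed, and lay between 0 and 1 with a replicate left out (1 without replicate 3). For the difference between the compounds, 2 were called, 1 with DESeq2's size factors, TMM within fractions, upper quartile scaling, filterByExpr, no filter or no replicate block, and 0 without plate and replicate terms, with the GC trend removed or at an adjusted p below 0.05. It lay between 0, without replicate 1 or 2, and 1, without replicate 3, replicate 4 or cercosporamide replicate 4 alone. For the DMSO ratio the 4 calls became 10 with TMM within fractions (median 0.57), 8 with upper quartile scaling or without cercosporamide replicate 4, and 7 with filterByExpr, and lay between 3 and 8 with a replicate left out. In polysomes after cercosporamide, 1 call became 2 with DESeq2, its size factors, upper quartile scaling, filterByExpr or the GC trend removed, 0 at an adjusted p below 0.05, and between 0, without replicate 2, and 2, without replicate 3 or cercosporamide replicate 4, with libraries left out. The causes were not tested.

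Without the replicate block, plates were no longer matched by replicate number, but the plate terms of the TE model stayed. LDHA's difference between the compounds was then -0.63 (adjusted p = 0.163 by edgeR) and PGAM1's 0.64 (adjusted p = 0.12 by edgeR). In this setting the difference count was the only one of the members' counts that moved by over 1.5 times. Of 1310 values of single genes under the alternatives, 1247 kept their side of the threshold, 28 lost and 35 gained a call, and no called value reversed. Among those that kept it, 94 values called in neither fit had the other sign. The GC correction covered only genes with a GC value, and it also removes any effect of a compound that follows GC content. The shallow cercosporamide polysome library of replicate 4 limits the precision of polysome values after cercosporamide.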
